A study of Mus musculus with 17 samples.

Results

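The 10 genes described here handle iron in macrophages: the ferritin chains Fth1 and Ftl1, the siderophore-binding protein Lcn2 (lipocalin-2), the uptake genes Tfrc and Slc11a2, the phagosomal transporter Slc11a1, the exporter Slc40a1, the regulators Ireb2 and Aco1, and Ncoa4. They were chosen by symbol from 24453 gene models, because Fth1 and Lcn2 were lower in the JunDKO libraries. Values of JunDKO against its control are therefore given as a description, with no p, and counts of genes past the calling limits there support nothing. Of the 17 samples of the series, 13 polyA RNA-seq libraries have values, and the 4 of GRO-seq are not used here.

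Immortalised bone marrow-derived macrophages (iBMDMs) are a C57Bl/6EiJ line transformed by a retrovirus with mutant BRAF and Myc. The 4 iBMDM groups all received vehicle and are labelled Scramble Control (zsGreen in the titles), Atf3KO, JunKO and JunDKO, with 2 libraries each. By the study's methods a lentivirus brought the guides into cells carrying Cas9 with EGFP, and infected cells were sorted for its tagBFP2 marker. What the zsGreen of the control titles stands for is not given in the sources used here. The targets, ATF3, Jun and JunD, are AP-1 transcription factors. The study speaks of replicate experiments, but whether these were separate infections or cultures of a line, or the lines single clones, is not given in the sources used here, so the p-values measure only the spread between libraries. Thioglycollate-elicited macrophages (TGEMs) are primary peritoneal cells, here of male 8-week mice, treated for 1 h with vehicle (PBS) or with Kdo2 lipid A (KLA), a bacterial lipid that activates TLR4. For C57Bl/6EiJ there was 1 library of each treatment, and for Balb/cJ 1 of vehicle and 2 of KLA. The substrain is spelled as in the labels (C57Bl/6EiJ), where the study's methods give C57Bl/6J for the mice.

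Depth spanned 1553296 to 18444343 reads per library, with the lowest and the highest both in JunDKO. Exonic levels of the targeted genes do not check an edit, because an edited locus can still be transcribed. For Atf3 the libraries labelled Atf3KO gave 154 and 169 RPKM and Scramble 80.7 and 77.4 RPKM, which goes against a loss of that mRNA. For Jun the libraries labelled JunKO gave 26.2 and 20.5 RPKM, and Scramble 17.6 and 18.5 RPKM. For Jund the libraries labelled JunDKO gave 6.94 and 6.07 RPKM, and Scramble 9.19 and 8.33 RPKM. The study reports that western blots checked knockout efficiency. It also reports that most Jun ChIP-seq peaks were lost in its Jun knockout iBMDMs. Groups are named by their labels alone below. The Atf3KO libraries detected 10425 and 10631 models, the fewest of the 13, and their replicate 2 is the only iBMDM library with a later date in its title. All 8 macrophage markers reached 1 RPKM in both kinds of cell. The 10 erythroid markers summed to at most 0.335 RPKM in any library.

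Ferritin is a shell of heavy and light chains that stores iron, and the heavy chain oxidises iron as it enters. Transferrin receptor brings iron into the cell, and ferroportin (Slc40a1), the only known cellular iron exporter, lets macrophages return the iron they recycle from old red blood cells. When iron is scarce, the iron regulatory proteins encoded by Aco1 and Ireb2 bind hairpins called iron response elements. Binding in a 5′ UTR blocks translation, as in ferritin, while binding in the 3′ UTR of Tfrc protects the mRNA from decay. In infection, lipocalin-2 withholds iron from bacteria by binding their siderophores, and Slc11a1 (NRAMP1) removes iron from the phagosome.

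The hairpins are printed because iron is known to act on some of these mRNAs through them. RefSeq transcripts (GRCm38, which is mm10) were searched for a C, 5 stem bases, the loop CAGTG plus any base, and 5 closing stem bases. All 5 of 5 stem bases had to pair, G with U included. A site was found in a UTR of 4 of the 10 genes. Such a site lay in a UTR of 108 of 20294 coding models (0.532%). Only the transcript of each model was searched, and weaker stems were not counted. A gene without a match is therefore not shown to lack such an element, and a number of sites may be incomplete. In the 29-base runs below, written as DNA 5′ to 3′ on the mRNA strand, the capitals mark the loop bases CAGTG. The first is in the 5′ UTR of Fth1 (chr19:9982732-9982760, plus strand), the second in that of Ftl1 (chr7:45459779-45459807, minus strand) and the last in that of Slc40a1 (chr1:45925465-45925493, minus strand).
Fth1: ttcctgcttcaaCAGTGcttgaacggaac
Ftl1: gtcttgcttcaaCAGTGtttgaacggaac
Slc40a1: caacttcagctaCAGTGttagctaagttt

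Tfrc held 4 such sites in its 3′ UTR, and it was the 1 coding model of the 20294 with 3 or more. In order along the mRNA they are at chr16:32631219-32631247, chr16:32631598-32631626, chr16:32631663-32631691 and chr16:32631710-32631738, all on the plus strand.
Tfrc, first site: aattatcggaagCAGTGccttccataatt
Tfrc, following site: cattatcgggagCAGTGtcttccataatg
Tfrc, next site: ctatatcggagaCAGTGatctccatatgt
Tfrc, last site: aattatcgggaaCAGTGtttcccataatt

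Promoters of 8 members (RefSeq, GRCm38.p6, 250 bases before the start of the model) were searched on both strands for the AP-1 letters TGANTCA and TGACGTCA and for TGACNNNGC. The first 2 occurred in none of the 8, and in 6.749% and 1.546% of 32851 promoters. TGACNNNGC, found in 10.16% of all promoters, occurred in that of Ncoa4 only, as TGACCTGGC. A match is a description of letters, and the lack of one says only that these letters are not in this window.

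Levels are RPKM, which are reads scaled by exonic length and library depth. Log2 fold changes compare log2(RPKM + 1), come with their standard error (SE) and are from limma-trend fitted over all models that averaged 1 RPKM or more. A gene is called at a Benjamini-Hochberg adjusted p under 0.05, a 2-fold change and a mean of 16 RPKM in either group. All 10 members were tested in iBMDMs, but Aco1 and Ncoa4 stayed under 16 RPKM in every group mean and could not be called. In TGEMs 9 were tested, Lcn2 being too low, and of these Slc40a1, Ireb2 and Ncoa4 were under 16 RPKM.

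**Figure D1:**
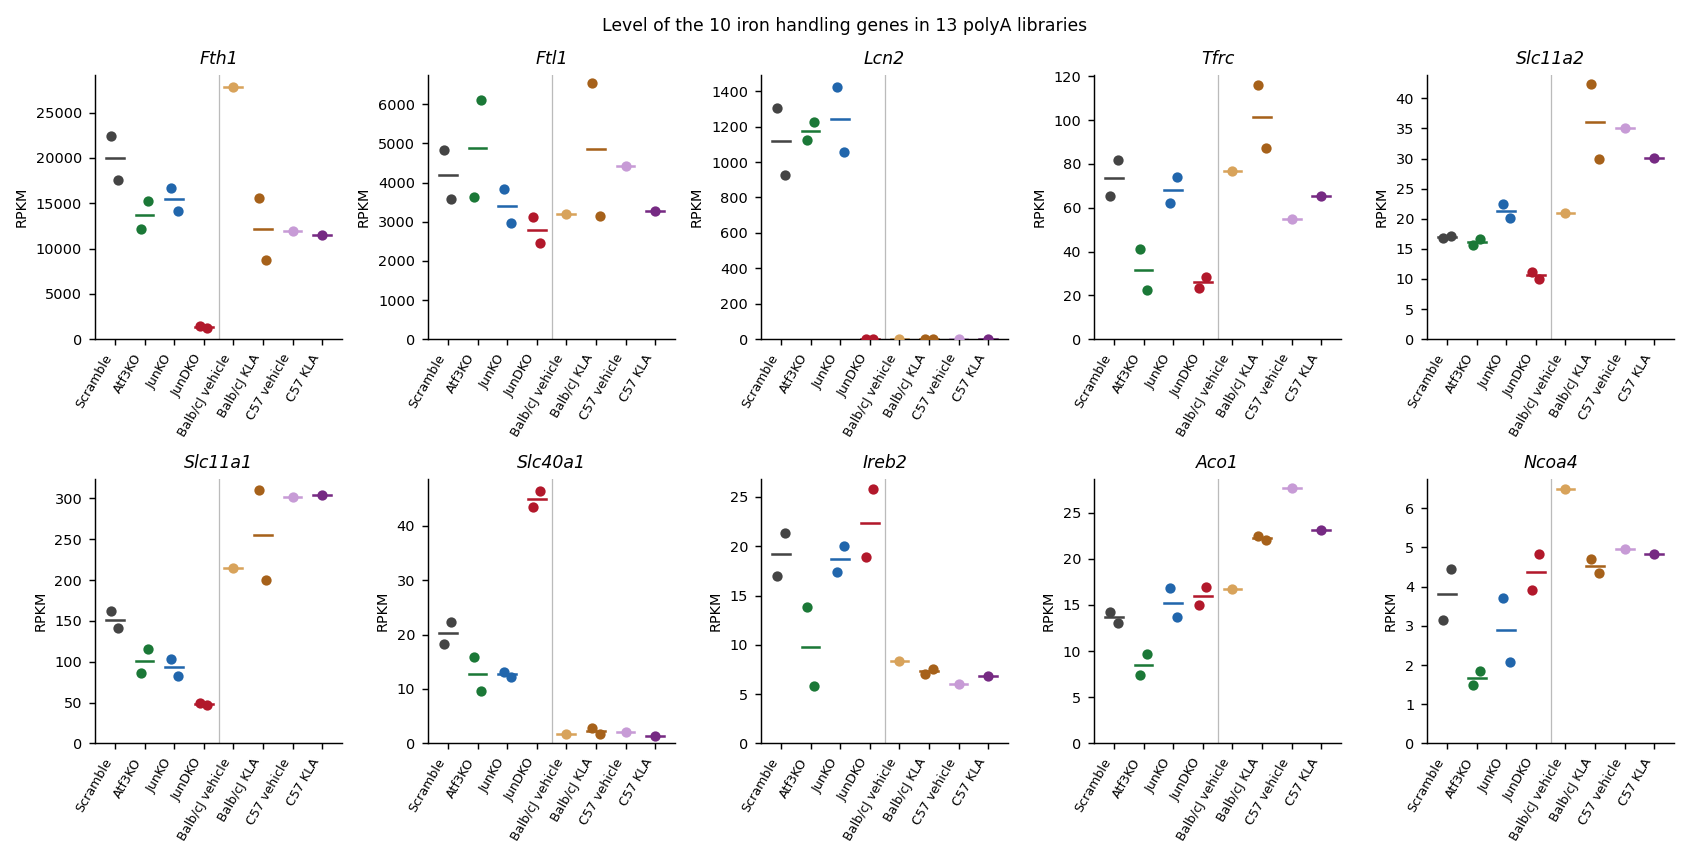
Level in RPKM (linear axes from 0) of each of the 10 genes in 13 libraries. A point is 1 library, a short line is the mean of the group, and the grey line separates iBMDM groups on the left from TGEM groups on the right. Fth1 and Lcn2 sit lowest among iBMDM groups in JunDKO and Slc40a1 sits highest there. Lcn2 is at or near 0 in TGEMs.

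Fth1 (NM_010239, chromosome 19, 9982646 to 9985111, plus strand, 936 exonic bases) measured 22402 and 17582 RPKM in Scramble. It measured 12135 and 15271 RPKM in Atf3KO, 16724 and 14182 RPKM in JunKO, and 1484 and 1256 RPKM in JunDKO. Both JunDKO libraries lay far below the other 6, which spanned 12135 to 22402 RPKM and did not overlap them. The JunDKO mean was 14.6-fold lower than that of Scramble, a log2 fold change of -3.86 ± 0.22 (SE, n = 2 per group). Over the alternatives that value spanned -4.16 (equal library medians) to -3.03 (quantile normalization).

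By RPKM Fth1 was among the 3 highest of all models in the 11 libraries outside JunDKO, and 9 and 10 in the JunDKO libraries. It took 1.14% to 2.10% of the reads of the other iBMDM libraries and 0.139% and 0.118% of those of JunDKO. Fth1 was therefore still among the 10 highest models in both JunDKO libraries.

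Ftl1 (NM_010240, chromosome 7, 45457944 to 45459886, minus strand, 964 exonic bases) encodes the light chain. Its level was 4823 and 3571 RPKM in Scramble, 3637 and 6119 RPKM in Atf3KO, 3847 and 2980 RPKM in JunKO and 3113 and 2448 RPKM in JunDKO. JunDKO lay below Scramble, with a log2 fold change of -0.59 ± 0.29, but overlapped JunKO, and quantile normalization turned the value to 0.56. Ftl1 varied 2.50-fold over the 8 iBMDM libraries, against 17.8-fold for Fth1.

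The ratio of Fth1 to Ftl1 RPKM was 4.64 and 4.92 in Scramble and 4.35 and 4.76 in JunKO. It was 3.34 and 2.50 in Atf3KO and 0.477 and 0.513 in JunDKO. JunDKO was the only iBMDM group with more light than heavy chain mRNA per length. The 5 ferritin copies in GENCODE vM21 (pseudogenes of Fth1 and Ftl1) are not models of the table, so how reads shared with them were counted is not known and the exact ferritin levels are uncertain.

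**Figure D2:**
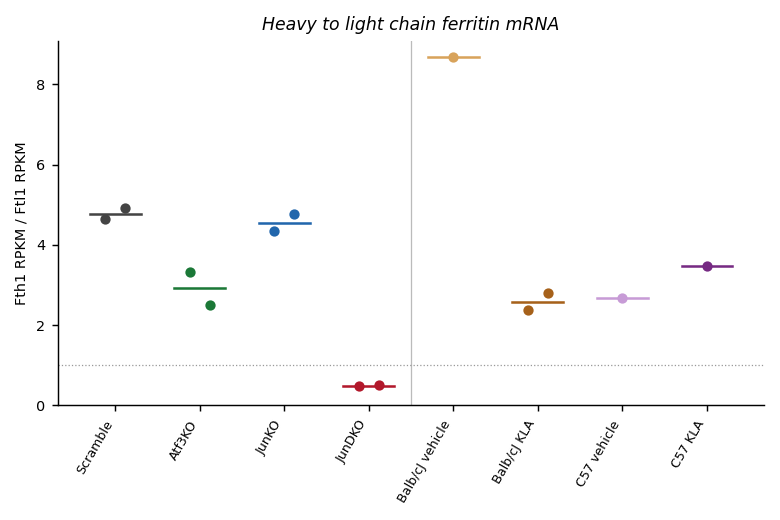
Ratio of Fth1 to Ftl1 RPKM (linear axis from 0) in each library; points are libraries, short lines group means, the dotted line a ratio of 1. The JunDKO libraries, at 0.477 and 0.513, are the 2 below 1, and the Balb/cJ vehicle library, at 8.68, is the highest.

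Lcn2 (NM_008491, chromosome 2, 32384637 to 32387739, minus strand, 845 exonic bases) showed the widest range. It measured 1305 and 929 RPKM in Scramble, 1123 and 1223 RPKM in Atf3KO and 1423 and 1059 RPKM in JunKO. In JunDKO it measured 3.05 RPKM, from 4 reads, in replicate 1 and 0 in replicate 2. The 6 libraries outside JunDKO overlapped among themselves and ranked Lcn2 at 16 to 25 of all models.

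A count of 0 in the deep JunDKO replicate 2 allows up to 0.192 RPKM (3 reads), and replicate 1 was above its own limit of 2.29 RPKM. These limits cover counting error only. The 3.05 RPKM of replicate 1 lay above the limit of replicate 2, and why the 2 libraries differ was not tested. Scramble held 3471 Lcn2 reads over its libraries and JunDKO 4, all of them in replicate 1. The fitted log2 fold change was -9.10 ± 0.55, a value that depends on the added 1 RPKM and is no bound. It spanned -10.1 to -8.09 with 1 library left out and -13.4 (limma-voom) to -7.45 (5 RPKM added) over all alternatives. Lcn2 is also a neutrophil granule gene. The 11 neutrophil markers summed to 45.1 and 48.6 RPKM in Scramble, far below Lcn2, and to 23.3 and 25.2 RPKM in JunDKO, above it, and 7 of the 11 were at 0 in every iBMDM library. The sums hold markers that went opposite ways. S100a8, a calcium-binding protein of neutrophils and monocytes, was at 34.8 and 33.2 RPKM in Scramble and at 0 in both JunDKO libraries, as Lcn2 was at or near 0, whereas Csf3r, the G-CSF receptor, was at 2.53 and 3.31 RPKM in Scramble and 14.1 and 12.5 RPKM in JunDKO. Their part in the level of Lcn2 was not tested.

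Tfrc (NM_011638, chromosome 16, 32608896 to 32632794, plus strand, 4893 exonic bases), the transferrin receptor, measured 65.3 and 81.8 RPKM in Scramble and 62.3 and 73.9 RPKM in JunKO. It measured 41.3 and 22.3 RPKM in Atf3KO and 23.6 and 28.4 RPKM in JunDKO. Atf3KO and JunDKO overlapped each other and lay below Scramble and JunKO. JunDKO was 2.83-fold lower than Scramble by group means, a log2 fold change of -1.46 ± 0.29.

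Slc11a2 (NM_008732, chromosome 15, 100387900 to 100423055, minus strand, 3004 exonic bases) encodes DMT1, which moves ferrous iron across membranes. It was at 16.7 and 17.1 RPKM in Scramble, 15.7 and 16.6 RPKM in Atf3KO, 22.5 and 20.2 RPKM in JunKO and 11.1 and 10.1 RPKM in JunDKO. JunDKO was the lowest group and JunKO the highest, with no overlap between any 2 of the 4 groups. In JunDKO the log2 fold change was -0.63 ± 0.18, under 2-fold.

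Slc11a1 (NM_013612, chromosome 1, 74375203 to 74386051, plus strand, 2287 exonic bases) measured 162 and 142 RPKM in Scramble, 86.2 and 116 RPKM in Atf3KO, 103 and 82.7 RPKM in JunKO and 49.8 and 47.2 RPKM in JunDKO. All 3 knockout groups lay below Scramble. JunDKO was lowest, 3.13-fold below Scramble by group means, with a log2 fold change of -1.62 ± 0.20.

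Slc40a1 (NM_016917, chromosome 1, 45908070 to 45925594, minus strand, 3370 exonic bases), the exporter, was the only member whose JunDKO mean was more than 2-fold above Scramble. It measured 43.4 and 46.3 RPKM in JunDKO, 18.3 and 22.4 RPKM in Scramble, 15.9 and 9.60 RPKM in Atf3KO and 13.1 and 12.3 RPKM in JunKO. Both JunDKO libraries lay above the other 6. The log2 fold change in JunDKO was 1.11 ± 0.25, and it was 0.82, under 2-fold, once libraries were scaled to equal medians. That scaling moved the median log2 fold change of all models in JunDKO from 0.23 to -0.022.

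The regulators showed no such contrast in JunDKO. Ireb2 (NM_022655, chromosome 9, 54863755 to 54912534, plus strand, 5784 exonic bases) was at 17.0 and 21.3 RPKM in Scramble and 18.9 and 25.8 RPKM in JunDKO. Aco1 (NM_007386, chromosome 4, 40143265 to 40199009, plus strand, 4296 exonic bases) was at 14.2 and 13.1 RPKM in Scramble and 15.0 and 17.0 RPKM in JunDKO. Ncoa4 (NM_019744, chromosome 14, 32165789 to 32179855, plus strand, 3941 exonic bases), the receptor that delivers ferritin for degradation, was at 3.16 and 4.45 RPKM in Scramble and 3.92 and 4.83 RPKM in JunDKO. Their log2 fold changes there were 0.21 ± 0.35, 0.21 ± 0.21 and 0.17 ± 0.30.

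In JunDKO against Scramble 5 of the 10 genes met the calling limits, where 4.97% of 10691 models did. Fth1, Lcn2, Tfrc and Slc11a1 were lower and Slc40a1 was higher. The median log2 fold change was -0.61 over the members and 0.23 over all models. Libraries of JunDKO and Scramble lay apart, in either direction, in 6588 of the 10691 models. Because this contrast chose the members, nothing is read from these counts. Slc40a1 dropped under the limits in 9 of 20 alternative settings and Tfrc in 4. Both did so without Scramble replicate 1 or 2 and without JunDKO replicate 1 or 2, which left 3 members past them.

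**Figure D3:**
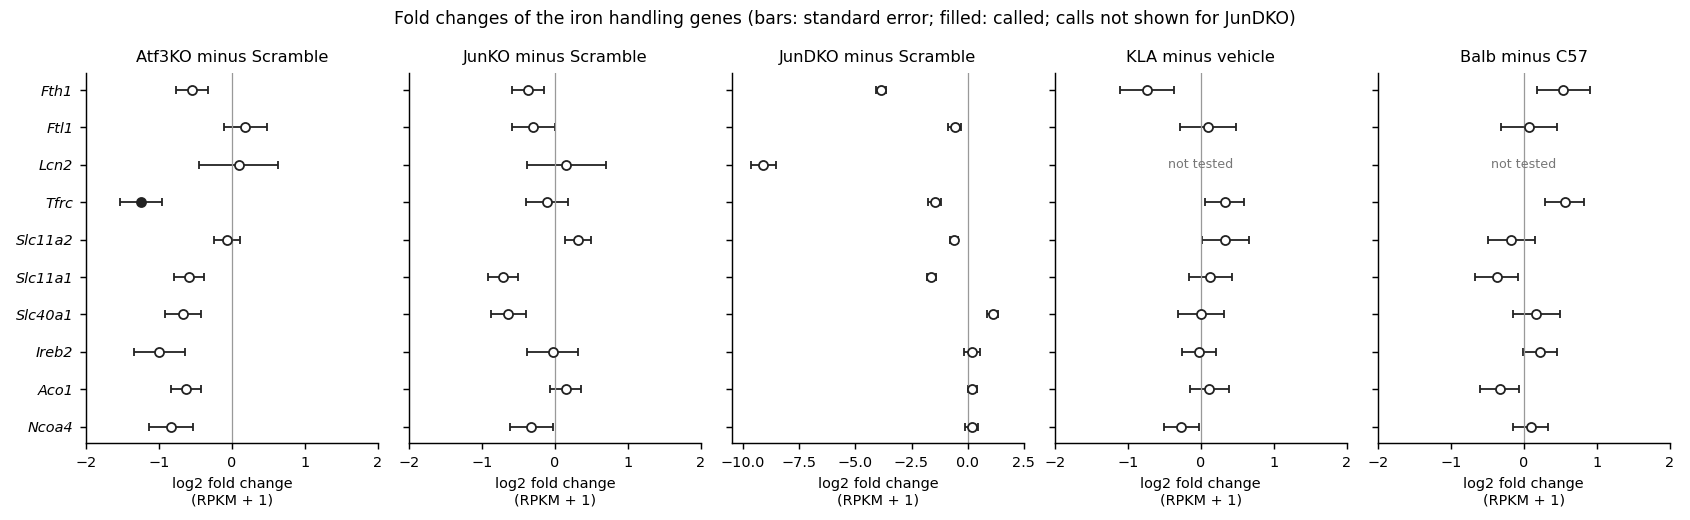
Log2 fold change (horizontal, log2(RPKM + 1) scale) of the 10 genes in 5 comparisons, with bars of 1 standard error; filled points were called. The JunDKO panel, which has a wider axis, is drawn open throughout because that contrast chose the genes. Tfrc in Atf3KO is the 1 filled point, and in JunDKO Lcn2 lies at -9.10 and Fth1 at -3.86.

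In the libraries labelled Atf3KO 1 of the 10 genes was called against Scramble, where 12.5% of 10691 models were called, so the share of members was near that of all models. Tfrc fell, by 1.24 ± 0.29 on the log2 scale (limma-trend adjusted p = 0.0115, n = 2 per group). Both Atf3KO libraries lay below both of Scramble, but these groups lay apart, in either direction, in 7569 of the 10691 models. The call was lost without Atf3KO replicate 2 (-0.81, adjusted p = 0.0433), which is also the comparison within 1 date, without Scramble replicate 2 (-1.08, adjusted p = 0.0867) and with each library's GC trend removed (-0.43, adjusted p = 0.0493). Over its alternatives the limma-trend adjusted p of Tfrc spanned 0.0018 to 0.0867. Across 10617 models, which are not independent, Atf3KO fold changes increased with GC content (Spearman's rho = 0.50), and Tfrc has a GC content of 39.9%, at the 6.86 percentile of all models. The part of the date in the fall of Tfrc was not tested further.

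The other 9 were not called in Atf3KO. Slc11a1 (-0.59 ± 0.20, limma-trend adjusted p = 0.0483) and Aco1 (-0.63 ± 0.21, adjusted p = 0.0425) passed the adjusted p but stayed under 2-fold. With the GC trend removed Slc11a1 was called (-1.03, limma-trend adjusted p = 0.000516, range over its alternatives 0.000516 to 0.186). Aco1 measured 7.41 and 9.65 RPKM in Atf3KO, below the other 6 iBMDM libraries. Ireb2 was at 13.8 and 5.85 RPKM in Atf3KO, with a log2 fold change of -0.99 ± 0.35 (limma-trend adjusted p = 0.0519). It was called without Atf3KO replicate 1 (-1.55, adjusted p = 0.0079) and was at -0.11 with the GC trend removed, and the adjusted p spanned 0.0079 to 0.714 over its alternatives.

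Ncoa4, at 1.50 and 1.86 RPKM in Atf3KO, had a log2 fold change of -0.83 ± 0.30 (limma-trend adjusted p = 0.0557), and Slc40a1 one of -0.67 ± 0.25 (adjusted p = 0.0601). Slc40a1 passed 2-fold without Atf3KO replicate 1 (-1.003), and its value spanned -1.003 to -0.18 over its alternatives. Fth1 had a log2 fold change of -0.54 ± 0.22 (limma-trend adjusted p = 0.0785), and over its alternatives the value spanned -0.78 to -0.37, under 2-fold, and the adjusted p 0.0043 to 0.485. Ftl1 (0.18 ± 0.29), Slc11a2 (-0.065 ± 0.18) and Lcn2 (0.090 ± 0.55) had adjusted p of 0.636, 0.789 and 0.912 in limma-trend. With the GC trend removed Ftl1 turned to -0.51 (limma-trend adjusted p = 0.0194), under 2-fold, and its adjusted p spanned 0.0194 to 1 over its alternatives. The SE of Lcn2 is set by the spread shared over all iBMDM libraries, JunDKO included, and was 0.28 in a fit of the 2 groups alone. The median log2 fold change of the 10 was -0.61, against 0.052 over all models, and 7 of the 10 had an unadjusted p under 0.05, as had 5543 of the 10691 models.

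In the libraries labelled JunKO 0 of the 10 were called by limma-trend, where 0.196% of 10691 models were called. An unadjusted p under 0.05 was met by 2 of the 10 and by 842 of all models. These 2 were Slc11a1 (-0.71 ± 0.20, limma-trend adjusted p = 0.363) and Slc40a1 (-0.64 ± 0.25, limma-trend adjusted p = 0.550). In both genes the JunKO libraries lay below those of Scramble, where these groups lay apart, in either direction, in 3975 of all models. Over its alternatives Slc11a1 spanned -0.86 to -0.55. Its adjusted p went under 0.05 at the lowest, but the change stayed under 2-fold and was not called. limma-voom on recovered reads also called 0. Fth1 had a log2 fold change of -0.37 ± 0.22 (limma-trend adjusted p = 0.779), which spanned -1.13 to -0.19 over its alternatives and was never called. Slc11a2 had one of 0.32 ± 0.18 (limma-trend adjusted p = 0.753). Lcn2 (0.16 ± 0.55) and Tfrc (-0.11 ± 0.29) lay close to 0, as did Ireb2 (-0.032 ± 0.35), at 17.3 and 20.0 RPKM, and Aco1 (0.15 ± 0.21), at 16.8 and 13.7 RPKM. Ncoa4, at 3.72 and 2.07 RPKM, overlapped Scramble. The 3 knockout comparisons share the Scramble libraries, so like fold changes in them are not independent.

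In TGEMs Fth1 was again among the top 3 mRNAs in every library. It measured 27861 RPKM in the Balb/cJ vehicle library, 15558 and 8785 RPKM in the Balb/cJ KLA libraries, 11902 RPKM in the C57Bl/6EiJ vehicle library and 11459 RPKM in the C57Bl/6EiJ KLA library. The Balb/cJ vehicle library was the highest of all 13, and the other 4 overlapped across treatments. With strain as a covariate the log2 fold change with KLA was -0.74 ± 0.37 (5 libraries, limma-trend adjusted p = 0.381). It was -0.055 without the Balb/cJ vehicle library, -0.45 without Balb/cJ KLA replicate 2 and -1.25 without either C57Bl/6EiJ library, and no setting called it (adjusted p 0.219, with limma-voom, to 0.997 over the alternatives).

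Ftl1 measured 3210 RPKM in the Balb/cJ vehicle library, 6554 and 3136 RPKM with KLA, and 4426 and 3286 RPKM in C57Bl/6EiJ without and with KLA. The ratio of Fth1 to Ftl1 was 8.68 in the Balb/cJ vehicle library, 2.37 and 2.80 in the Balb/cJ KLA libraries, 2.69 in C57Bl/6EiJ vehicle and 3.49 in C57Bl/6EiJ KLA. The ratio was thus high in 1 library only, which also had the highest summed level of 6 mesothelial and fibroblast markers (86.3 RPKM, against 42.4 to 76.5 in the other 4). Their part in the ratio was not tested. The interaction of KLA and strain for Fth1 was -1.20 ± 0.78 (limma-trend adjusted p = 0.761).

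Tfrc rested at 76.9 RPKM in Balb/cJ and 54.7 RPKM in C57Bl/6EiJ, and measured 116 and 87.1 RPKM with KLA in Balb/cJ and 65.1 RPKM in C57Bl/6EiJ. Every KLA library was above the vehicle library of its strain, yet the difference of 0.33 ± 0.27 did not pass the test (limma-trend adjusted p = 0.593). All 3 Balb/cJ libraries were above both C57Bl/6EiJ libraries (0.56 ± 0.27, limma-trend adjusted p = 0.279). The strains lay apart, in either direction, in 3638 of 10357 models.

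Slc11a1 measured 215 RPKM in Balb/cJ vehicle, 311 and 199 RPKM in Balb/cJ KLA, 301 RPKM in C57Bl/6EiJ vehicle and 305 RPKM in C57Bl/6EiJ KLA. Slc11a2 measured 20.9 RPKM in Balb/cJ vehicle, 42.4 and 29.95 RPKM in Balb/cJ KLA, 35.03 RPKM in C57Bl/6EiJ vehicle and 30.1 RPKM in C57Bl/6EiJ KLA. For both genes the vehicle and KLA libraries overlapped. Aco1 spanned 16.7 to 27.6 RPKM, Ireb2 6.00 to 8.34 RPKM, Ncoa4 4.36 to 6.50 RPKM and Slc40a1 1.46 to 2.82 RPKM.

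With KLA 0 of 9 tested members were called and 0 had an unadjusted p under 0.05 in limma-trend, where 1.13% of 10357 models were called. limma-voom on recovered reads called 0 as well. Between the strains 0 of 9 were called and 0 had an unadjusted p under 0.05, where 1.16% of models were called. The interaction gave 0 of 9, 0 of them with an unadjusted p under 0.05, and 0% of all models, 835 of which had an unadjusted p under 0.05. With 5 libraries these fits leave 2 residual degrees of freedom, and 1 for the interaction, so a member that misses the threshold is not shown to be alike between groups.

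Set side by side, the 2 kinds of cell differed in several members. Lcn2 had 0 reads in the Balb/cJ vehicle and both C57Bl/6EiJ libraries, which allows up to 1.52, 0.311 and 1.09 RPKM, and 20 reads and 1 read in the Balb/cJ KLA libraries (1.37 and 0.180 RPKM). Slc40a1 was at 9.60 RPKM or more in every iBMDM library and at 2.82 RPKM or less in every TGEM library. Slc11a1 was at 199 RPKM or more in TGEMs and at 162 RPKM or less in iBMDMs. Origin, immortalisation, culture and date differ between these cells and cannot be told apart here, and no test was made. In a bulk sample, fewer cells of a type and less RNA per cell cannot be told apart either.

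In order of group means, Fth1 went from Balb/cJ vehicle through Scramble, JunKO, Atf3KO, Balb/cJ KLA, C57Bl/6EiJ vehicle and C57Bl/6EiJ KLA to JunDKO. The neighbours JunKO and Atf3KO overlapped, as did Atf3KO and Balb/cJ KLA, and Balb/cJ KLA and C57Bl/6EiJ vehicle. For Lcn2 the order was JunKO, Atf3KO and Scramble, which overlapped in turn, and then JunDKO. For Tfrc, Balb/cJ KLA came first and Atf3KO and JunDKO, which overlapped, came last.

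The models whose profile was most like that of Fth1 over the 13 libraries were Pirb, Cbr3 and Cpeb1. Likeness was the root mean square difference of log2(RPKM + 1), each gene centred on its own mean, among 10928 models, and these 3 had differences of 0.613, 0.642 and 0.645, where the profile of Fth1 had a root mean square of 1.31. Pirb, an inhibitory receptor of myeloid cells, had means of 89.2 RPKM in Scramble, 71.1 RPKM in Atf3KO, 81.0 RPKM in JunKO and 16.4 RPKM in JunDKO. Cbr3, a carbonyl reductase, had means of 21.0 RPKM in Scramble, 8.58 RPKM in Atf3KO, 8.81 RPKM in JunKO and 0.604 RPKM in JunDKO.

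For Lcn2 the most like were Marco, Stfa3 and Mir7678, with differences of 1.22, 1.55 and 1.64, where the profile of Lcn2 had a root mean square of 4.86. Marco, a scavenger receptor of macrophages, had means of 530 RPKM in Scramble, 628 RPKM in Atf3KO, 645 RPKM in JunKO and 6.24 RPKM in JunDKO, and at most 1.43 RPKM in any TGEM group. Stfa3, a stefin, was at 269 RPKM in Scramble, 56.1 RPKM in Atf3KO, 555 RPKM in JunKO and 0.858 RPKM in JunDKO. Mir7678 is a model of 70 exonic bases inside Slpi, and its reads cannot be told from those of Slpi. The JunDKO contrast enters this likeness, so it is a description.

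A further 56 iron genes in 6 classes give the rest of the pathway, all of them in the table, with 41 tested in iBMDMs and 43 in TGEMs. The classes are uptake and reduction, haem, export and systemic control, storage and chaperones, regulators, and mitochondrial iron. In Atf3KO 3 were called higher and 2 lower, which is 12.2% of those tested and near the 12.5% of all models. In JunKO 0 were called by limma-trend (0.196% of all models), with KLA 0 (1.13%), and between strains 1, lower in Balb/cJ (2.33%, against 1.16% of all models). In JunDKO 2 were past the limits upward and 2 downward, 9.76% of the list against 4.97% of all models. An unadjusted p under 0.05 was met by 46.3% of the list in Atf3KO, where 51.8% of all models met it, by 12.2% in JunKO (7.88%), 18.6% with KLA (15.0%) and 27.9% between strains (21.4%). Without Atf3KO replicate 1, 8 were called in Atf3KO in place of 5. The median log2 fold change of the 41 in Atf3KO was 0.13, against 0.052 over all models.

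Haem synthesis starts with the enzyme Alas1, and Hmox1 breaks it down and frees its iron. Alas1 measured 108 and 83.7 RPKM in Scramble, 31.3 and 42.3 RPKM in Atf3KO, 48.6 and 36.0 RPKM in JunKO and 17.0 and 14.8 RPKM in JunDKO. All 6 knockout libraries lay below both of Scramble. Alas1 fell in Atf3KO by 1.36 ± 0.24 on the log2 scale (limma-trend adjusted p = 0.0039), a call that held in 19 of 19 alternatives. In JunKO its log2 fold change was -1.16 ± 0.24, which did not pass the test (limma-trend adjusted p = 0.153). It was called there in 2 alternatives, with the GC trend removed (-1.17, limma-trend adjusted p = 0.0193) and with the replicate number as a block crossed for Atf3KO. That of JunDKO was -2.51 ± 0.24, given without a test.

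Hmox1 measured 707 and 623 RPKM in Scramble, 711 and 584 RPKM in JunKO, 325 and 345 RPKM in Atf3KO and 235 and 183 RPKM in JunDKO. In Atf3KO its log2 fold change of -0.99 ± 0.19 passed the adjusted p (limma-trend, 0.0059) but not 2-fold, which it passed in 5 alternatives (-1.03 without Atf3KO replicate 2 and -1.08 without Scramble replicate 2 among them), and in JunDKO it was -1.67 ± 0.19. Bach1, a haem-binding repressor of Hmox1 and ferritin genes, was at 18.1 and 19.5 RPKM in Scramble and 6.14 and 5.60 RPKM in Atf3KO. It fell there by 1.53 ± 0.18 (limma-trend adjusted p = 0.0009, held in 19 of 19 alternatives). In JunDKO Bach1 was at 19.1 and 19.4 RPKM, within the Scramble range.

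Trf, the transferrin that carries iron to Tfrc, was at 29.3 and 28.5 RPKM in Scramble, 30.4 and 26.2 RPKM in JunKO, 69.0 and 73.1 RPKM in Atf3KO and 147 and 156 RPKM in JunDKO. It rose in Atf3KO by 1.27 ± 0.16 (limma-trend adjusted p = 0.0013, held in 19 of 19 alternatives), and its log2 fold change in JunDKO was 2.34 ± 0.16. Hfe, which binds the transferrin receptor, was at 9.37 and 7.16 RPKM in Scramble and 38.7 and 32.1 RPKM in JunDKO, a log2 fold change of 1.98 ± 0.25. In Atf3KO it was at 15.7 and 17.3 RPKM, 0.93 ± 0.25 and under 2-fold, and was called without Scramble replicate 1 (1.10, limma-trend adjusted p = 0.0401) and with the GC trend removed (1.14, adjusted p = 0.0104).

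Glrx5, a carrier of iron-sulphur clusters in mitochondria, rose in Atf3KO from 16.6 and 17.0 to 29.6 and 49.4 RPKM (1.14 ± 0.32, limma-trend adjusted p = 0.0234). Of 19 alternatives, 7 ended the call for Glrx5. With the GC trend removed the value was 0.42 (limma-trend adjusted p = 0.314), without Atf3KO replicate 2 it was 0.78 (adjusted p = 0.137), without Scramble replicate 2 it was 1.16 (adjusted p = 0.105) and without Scramble replicate 1 it was 1.13 (adjusted p = 0.0905). The adjusted p over all alternatives spanned 0.0135 to 0.314.

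Between the TGEM strains Alas1 was the 1 iron gene called, and 4 were called with limma-voom on recovered reads or with all 13 libraries in 1 fit. The other 3 were Lrp1 (-1.38 ± 0.27, limma-trend adjusted p = 0.0514), Steap3 (-1.43 ± 0.31, 0.0611) and Trf (-1.06 ± 0.27, 0.0898), and Lrp1 was also called without Balb/cJ KLA replicate 2 (adjusted p = 0.0435). Alas1 measured 23.2, 26.8 and 20.7 RPKM in Balb/cJ and 88.8 and 133 RPKM in C57Bl/6EiJ, so the strains did not overlap under either treatment. Alas1 was lower in Balb/cJ by 4.69-fold in group means, with a log2 fold change of -2.21 ± 0.28 (limma-trend adjusted p = 0.0111). The direction held with each library left out (-2.44 to -1.89), but the call was lost without Balb/cJ KLA replicate 1 (adjusted p = 0.105), the C57Bl/6EiJ KLA library (0.112), the Balb/cJ vehicle library (0.112) or the C57Bl/6EiJ vehicle library (0.0791), and with no filter on low values (0.0538). Strain fold changes decreased with GC content (rho = -0.45 across 10286 models), and the strains differ in date, so strain and date cannot be told apart.

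**Figure D4:**
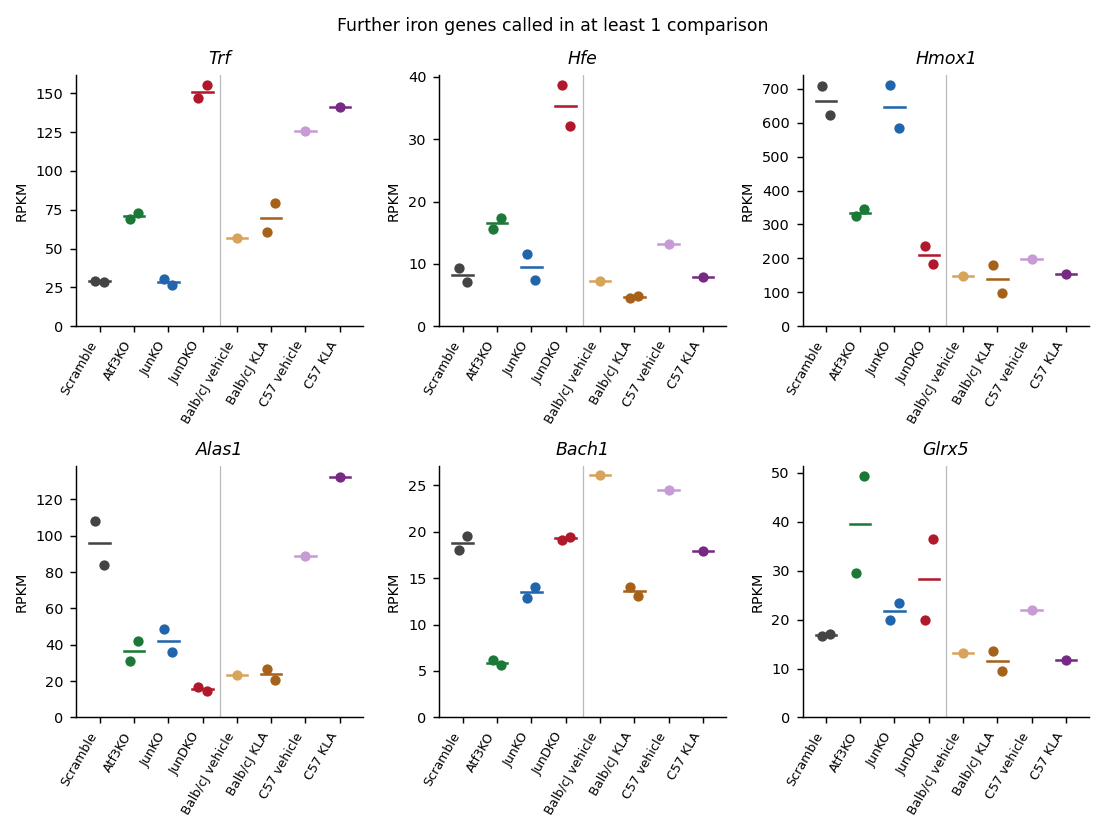
Level in RPKM (linear axes from 0) of 6 further iron genes past the calling limits in at least 1 comparison. For Hmox1 and Hfe this was JunDKO alone, which is given without a test. Points are libraries, short lines group means, and the grey line separates iBMDM groups on the left from TGEM groups on the right. Trf and Hfe are highest among iBMDM groups in JunDKO and Alas1 is lowest there, at 17.0 and 14.8 RPKM. In TGEMs Alas1 is at 88.8 RPKM or more in both C57Bl/6EiJ libraries and at 26.8 RPKM or less in Balb/cJ.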

How the data were processed

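PolyA RNA-seq of 13 mouse macrophage libraries was analysed. Per the labels the authors aligned reads with STAR to mm10 (for Balb/cJ, to an mm10-derived genome of the strain), and the deposited values are RPKM over exons of 24453 gene models, counted with HOMER. Versions and a strand option are not given in the sources used here. The authors tested raw reads with edgeR, which was not used here. RPKM times exonic length moves in steps of 1 read, which gave depth (1553296 to 18444343 reads) and the reads behind each value. Every value of up to 50 reads came out whole, within 0.05 read or its rounding. Intervals and limits from reads cover counting error only.

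log2(RPKM + 1) was fitted with limma-trend, 2-sided, with 4 group means over 8 iBMDM libraries (4 residual degrees of freedom) and treatment plus strain over 5 TGEM libraries (2, or 1 with the interaction). Models had a mean of at least 1 RPKM. A call needed a Benjamini-Hochberg adjusted p under 0.05, 2-fold and 16 RPKM. Where 1 library was left out, the lone library of its group was assumed to vary like the other groups. The members and lists were chosen with earlier results of these data known. All members are named. Of the other iron genes, those called are named, up to 6 per comparison, except 1 that is counted but not reported here, and for Fth1 and Lcn2 the 3 most like models. The search of whole transcripts for iron response elements, the crossed block and the fits without Atf3KO were added after values were seen. The scripts were tested on simulated data. Fits used limma 3.58.1 in R 4.3.3. Tables were handled in Python 3.11.15 with pandas 2.3.3 and scipy 1.17.1 and drawn with matplotlib 3.10.9.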

Additional observations from a re-analysis of the deposited data

How the results depend on the processing

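Of 1112 pairs of a result and an alternative, 1021 kept their direction and side of the limits, 34 lost a call, 6 gained one and 51 changed sign. The tally covers the members and the further iron genes already called, so the calls that other further iron genes gained are outside it. Of the members in Atf3KO, 2 were called at equal library medians, 2 with quantile normalization and 2 with limma-voom on recovered reads, each adding Ireb2 to Tfrc, and 0 to 3 with 1 library left out. In JunDKO 3 to 5 were past the limits with 1 library left out. Over the alternatives the models called spanned 811 to 3068 in Atf3KO (1339 as reported), 5 to 58 in JunKO (21), 264 to 938 in JunDKO (531), 15 to 228 with KLA (117), 17 to 345 between strains (120) and 0 to 44 for the interaction (0). The 44 arose with the GC trend removed.

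None of the 51 sign changes concerned a called result, and their cause was not tested. At equal medians log2 fold changes were -0.093 for Lcn2 in Atf3KO, -0.077 for Ireb2, -0.065 for Aco1 and -0.066 for Ncoa4 in JunDKO, and 0.11 for Ireb2 with KLA. Quantile normalization gave -0.13 for Lcn2 in Atf3KO, 0.56 for Ftl1, -0.012 for Ireb2, -0.045 for Aco1 and -0.089 for Ncoa4 in JunDKO, -0.044 for Slc11a1 and 0.10 for Ireb2 with KLA, -0.28 for Fth1 between strains and -0.017 for the interaction of Tfrc. It sets a level by rank alone. The GC correction gave -0.51 for Ftl1 and -0.23 for Lcn2 in Atf3KO, 0.023 for Ireb2 in JunKO, -0.015 for Ftl1 and 0.14 for Ireb2 with KLA, and -0.12 for Slc40a1, -0.23 for Ireb2 and -0.21 for Ncoa4 between strains. Slc40a1 with KLA was at -0.013 with a pseudocount of 0.1 and -0.019 with limma-voom.

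With 1 library left out, Ftl1 and Lcn2 spanned -0.19 to 0.56 and -0.15 to 0.34 in Atf3KO. In JunKO Lcn2, Tfrc and Ireb2 spanned -0.088 to 0.40, -0.27 to 0.054 and -0.19 to 0.12, and in JunDKO Ireb2 and Ncoa4 spanned -0.0094 to 0.42 and -0.025 to 0.37. With KLA the ranges were -0.43 to 0.50 (Ftl1), -0.21 to 0.74 (Slc11a2), -0.046 to 0.27 (Slc11a1), -0.30 to 0.23 (Slc40a1), -0.17 to 0.17 (Ireb2) and -0.25 to 0.39 (Aco1). Between strains they were -0.46 to 0.46 (Ftl1), -0.72 to 0.24 (Slc11a2), -0.13 to 0.40 (Slc40a1) and -0.079 to 0.33 (Ncoa4).

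The iBMDM libraries share replicate numbers but no stated pairing. Deviations of same-numbered libraries correlated at 0.18 to 0.22 among Scramble, JunKO and JunDKO and at -0.21 to -0.12 with Atf3KO. With the number as a block, members called were 1 in Atf3KO, 0 in JunKO and 5 in JunDKO, and no other member call moved. With Atf3KO crossed, the models called were 1391, 42 and 563, against 1320, 8 and 506 with the block as numbered, and the further iron genes called were 6, 1 and 5, against 5, 0 and 4.

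Depth limits the low genes. Ncoa4 rested on 14 to 351 reads per iBMDM library, and a low RPKM in a library of 1553296 reads carries more counting error than the same value in one of 18444343.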

Other observations

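Other cell types are given for the whole set of lists. In iBMDMs the summed levels of 5 B cell, 5 T cell, 5 mast cell and eosinophil, and 6 mesothelial and fibroblast markers were at most 0.488, 1.42, 0.264 and 0.532 RPKM in any library. In TGEMs they were 11.2 to 25.2, 1.21 to 3.00, 0.753 to 4.77 and 42.4 to 86.3 RPKM. The 8 macrophage markers summed to 16880 to 33015 RPKM in iBMDMs and 7803 to 10847 RPKM in TGEMs. The 11 neutrophil markers summed to 20.0 to 51.6 RPKM in TGEMs, where Lcn2 was at most 1.37 RPKM.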
